A study of Homo sapiens with 6 samples.

Results

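Both arms of 2 related microRNA hairpins, miR-148a and miR-148b, are described in K562 cells with and without over-expression of RUNX1. The 4 mature microRNAs, hsa-miR-148a-3p, hsa-miR-148a-5p, hsa-miR-148b-3p and hsa-miR-148b-5p, were chosen by name from the 28846 small RNA entries of the count tables, of which 2596 are microRNAs. Predicted entries, 20 in all, are counted among the microRNAs. K562 is a human erythroleukemia cell line that can be driven towards erythroid or megakaryocytic fates, and RUNX1 is a transcription factor of the megakaryocytic branch. The control cells carried the empty lentiviral vector SIEW, from which GFP alone is made, and the RUNX1 cells carried the same vector with human RUNX1 beside GFP. There were 3 control and 3 RUNX1 samples, which the study describes as independent transductions of the one cell line, and RNA was taken after 10 days. The question addressed was which microRNAs differ in level when RUNX1 is raised. Each sample is a bulk culture, so a change in the cells' state and a change in the mixture of cells cannot be told apart.

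MicroRNAs are cut from hairpin precursors, and either arm of the hairpin can give a mature strand. The 5p strand comes from the left arm and the 3p strand from the right arm, and usually one of them is loaded into an Argonaute protein far more often and guides it to messenger RNAs, mainly through the seed at bases 2 to 8. miR-148a, miR-148b and miR-152 form one family with a common 3p seed. Their 3p strands are the usual guides and are known to target DNMT1, the maintenance DNA methyltransferase, in several cell types, and for miR-148a also regulators of B cell tolerance and of lipid uptake in liver. The family has been described as low in several cancers.

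The mature sequences are shown because the family's common seed, and the few bases by which its members differ, decide both what is counted together and what is told apart. They are from RefSeq on GRCh38.p14, with the seed in capitals, and 3 of the 4 microRNAs matched an entry by name.
hsa-miR-148a-3p: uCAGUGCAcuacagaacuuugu
hsa-miR-148b-3p: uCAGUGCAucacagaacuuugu
hsa-miR-152-3p: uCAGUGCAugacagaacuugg
hsa-miR-148b-5p: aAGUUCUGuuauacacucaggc
The seed CAGUGCA was held by 3 of the 2370 mature names of that table, which were the 3p strands of miR-148a, miR-148b and miR-152. With positions counted from 1 at the 5′ end and miR-148a-3p taken first, miR-148a-3p and miR-148b-3p differed by C9U and U10C and shared 20 of 22 bases. miR-152-3p, which is 21 bases long, differed from miR-148a-3p by C9U, U10G and U20G. All of these differences lie outside the seed. The seed of miR-148b-5p, AGUUCUG, is another one and was held by 2 names, miR-148b-5p and miR-6874-3p.

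The hairpins are shown so that the place of each 3p strand, in capitals, can be seen.
MIR148A: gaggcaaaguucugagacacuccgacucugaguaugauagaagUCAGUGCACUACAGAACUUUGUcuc
MIR148B: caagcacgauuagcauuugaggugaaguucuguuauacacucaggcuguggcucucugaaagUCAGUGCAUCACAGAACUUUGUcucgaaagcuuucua
The MIR148A hairpin lies on the minus strand at chr7:25949919-25949986 of GRCh38, is 68 bases long and holds the 3p strand at bases 44 to 65. In GENCODE 29 it overlapped no other gene, the nearest one was the long non-coding RNA AC010719.1 at 515 bases, and the nearest coding gene, NFE2L3, was 202253 bases away. The MIR148B hairpin lies on the plus strand at chr12:54337216-54337314, is 99 bases long and holds the 3p strand at bases 63 to 84. It lay in an intron of COPZ1, a coatomer subunit gene read from the same strand, and no exon overlapped it. AC078778.2 was annotated over the same stretch. MIR152 likewise lay in an intron of COPZ2, the paralog of COPZ1, at chr17:48037161-48037247 on the minus strand. The hairpins of miR-148a and miR-148b are thus on separate chromosomes, one intergenic and one within a host gene.

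Total counts were 1618248 to 6193319 in the controls and 7918551 to 15245007 in the RUNX1 samples, so every RUNX1 library was deeper. MicroRNAs made up 81.4 to 82.1% of the control counts and 89.5 to 91.9% of the RUNX1 counts. One microRNA, miR-10a-5p, took 7.74% ± 0.753 (SD, n = 3) of the microRNA counts in the controls and 30.2% ± 2.46 in the RUNX1 samples, so that shares of the others were pressed down there. Levels are therefore given as counts per 1000000 counts of a library (CPM) on library sizes scaled by TMM, a method that balances the bulk of the small RNAs between samples, and the results are set beside unscaled values further on. RUNX1 replicate 3 stood apart from the other RUNX1 replicates. The chi-square between replicates, per degree of freedom, was 451 and 314 for the pairs with this library, 56.3 for the other RUNX1 pair and 9.62 to 21.9 between controls. This measure grows with depth, and the RUNX1 libraries were deeper, so its RUNX1 and control values are not on one scale. Of the erythroid marker microRNAs, 4 of 4 had counts in every library. Their summed level on unscaled counts was 5800.5 to 6230 CPM in the controls and 1764 to 3199 CPM in the RUNX1 samples. On the same counts miR-451a was at 3543 to 3873 against 992 to 1612 CPM. With TMM scaling its fall was smaller, from a mean of 2903 to 1624 CPM (log2 fold change -0.84, SE 0.154). For miR-144-5p the TMM-scaled log2 fold change was -0.58 (SE 0.209). One of the 4, miR-144-3p, did not go that way, with overlapping unscaled levels of 136 to 176 and 170 to 218 CPM and a called rise on TMM scaling (log2 fold change 1.02, SE 0.138, adjusted p = 0.000221, edgeR). Of 5 microRNAs that mark other tissues, the summed unscaled level was 83.8 to 99.6 CPM in the controls and 131 to 158 CPM in the RUNX1 samples, nearly all of it the endocrine miR-375. The brain microRNA miR-124-3p was at 0 throughout, miR-208b-3p and miR-133a-3p of heart and muscle had at most 5 counts, and the liver microRNA miR-122-5p had at most 13. How reads that match several places were counted is not given in the sources used here, so counts near 0 need not mean absence. The part of either marker list in the results was not tested. RUNX1 messenger RNA is not measured by small RNA counts, so the over-expression was not checked here.

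All 4 arms had a higher TMM-scaled level in RUNX1 cells, although miR-148b-5p was lower with library size as the only scaling, and the dominant arm, miR-148a-3p, rose most. In the controls, numbered 1 to 3, miR-148a-3p was counted 20987, 74240 and 83729 times, and in RUNX1 samples 1 to 3 it was counted 468378, 244464 and 227816 times. On the scaled level this was 10037, 9213 and 11026 CPM against 40631, 39111 and 33251 CPM. The lowest RUNX1 sample stood far above the highest control, and the lowest of the 3 was RUNX1 replicate 3. The means were 10092 ± 908 and 37664 ± 3897 CPM (SD, n = 3 each), and the log2 fold change was 1.90 (SE 0.132), or 3.73-fold, with an adjusted p of 4.15e-06 by edgeR's quasi-likelihood test. Ranked by counts among all microRNAs of a library, miR-148a-3p moved from places 18, 18 and 15 in the controls to places 6, 8 and 8 in the RUNX1 samples.

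miR-148b-3p carries the same seed from the hairpin inside COPZ1 and was several times less abundant. Its counts were 3862, 12886 and 15128 in the controls and 51405, 26496 and 23029 in the RUNX1 samples. The scaled levels were 1847, 1599 and 1992 CPM against 4459, 4239 and 3361 CPM. The groups did not overlap, and RUNX1 replicate 3 again was the lowest of its group. The mean went from 1813 ± 199 to 4020 ± 581 CPM, a log2 fold change of 1.15 (SE 0.150) or 2.22-fold (adjusted p = 0.000177, edgeR). Without RUNX1 replicate 3 the log2 fold changes of miR-148a-3p and miR-148b-3p were 2.07 and 1.35.

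miR-148a-5p is the strand opposite miR-148a-3p, usually the less used one. It had 663, 2401 and 2599 counts in the controls and 5500, 3430 and 4641 in the RUNX1 samples. These came to 317, 298 and 342 CPM against 477, 549 and 677 CPM. The groups did not overlap, but here RUNX1 replicate 3 was the highest library and not the lowest. The mean was 319 ± 22.2 CPM in the controls and 568 ± 101 CPM in the RUNX1 samples, a log2 fold change of 0.83 (SE 0.156) or 1.78-fold (adjusted p = 0.0015, edgeR).

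miR-148b-5p was the least abundant of the 4 strands. Its counts were 450, 1670 and 1612 against 3431, 2088 and 2212. The scaled levels were 215, 207 and 212 CPM in the controls and 298, 334 and 323 CPM in the RUNX1 samples. The controls lay close together and below every RUNX1 sample. The mean went from 212 ± 4.02 to 318 ± 18.7 CPM, with a log2 fold change of 0.59 (SE 0.120) or 1.5-fold (adjusted p = 0.00243, edgeR), just past the size of 0.5 required for a call.

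**Figure D1:**
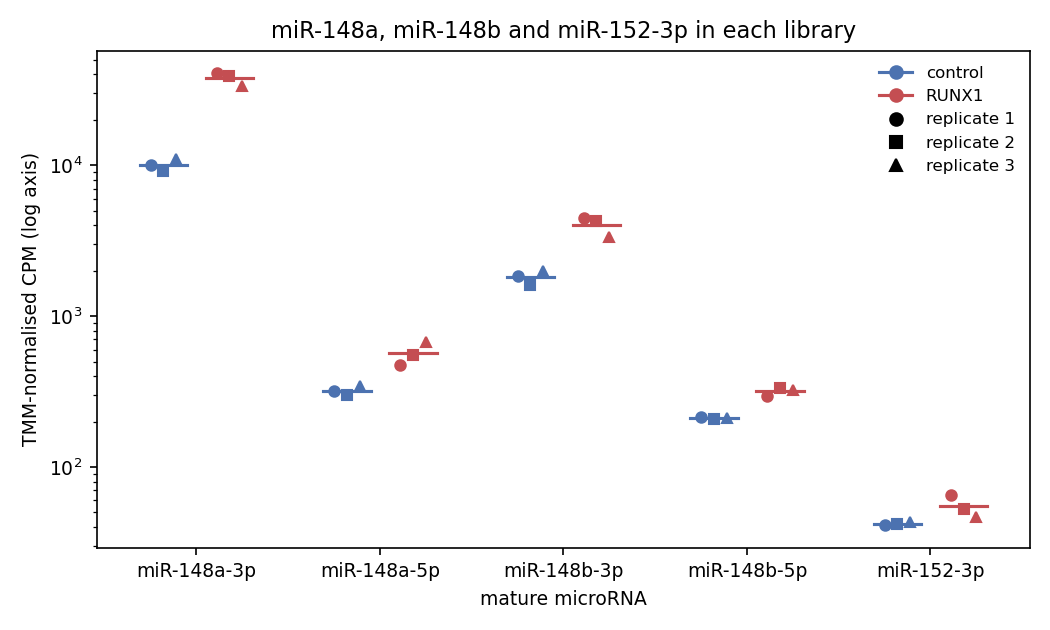
TMM-scaled levels of the 4 strands and of miR-152-3p, as CPM on a log axis, with a point per library (blue control, red RUNX1, a shape per replicate) and a horizontal line at each group mean. The RUNX1 points lie above the controls for each of them on this scaling, with the widest gap for miR-148a-3p (33251 to 40631 against 9213 to 11026 CPM), while library size alone put miR-148b-5p and miR-152-3p slightly lower in the RUNX1 samples.

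A microRNA was called when its P-value was below 0.05 and its log2 fold change was 0.5 or more in either direction. By this rule 4 of the 4 strands were altered upwards, where 33.4% of the 598 tested microRNAs were, and for 4 of the 4 every RUNX1 sample lay above every control, where 36.3% of the microRNAs did so. The 598 include predicted entries, and some of these repeat the values of an annotated microRNA, such as miR-15a-5p. The median log2 fold change was 0.99 over the 4 strands and 0.11 over the 598 microRNAs, with quartiles of -0.58 and 0.85. miR-148a-3p and miR-148b-3p stood in places 48 and 103 of the 598 by log2 fold change, and miR-148a-5p and miR-148b-5p in places 154 and 196. The 3p strands were above the upper quartile of the microRNAs and the 5p strands below it. As the paired strands come from one precursor each, the 4 values are not independent.

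**Figure D2:**
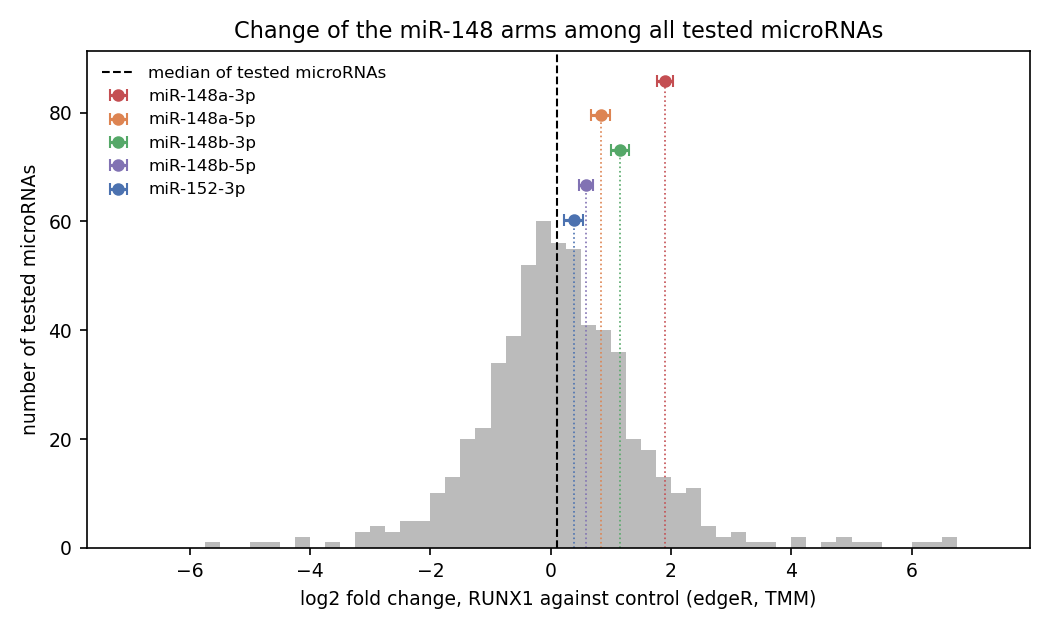
Histogram of the log2 fold change, RUNX1 against control on TMM scaling, with the number of tested microRNAs (598 in all) on the y axis, a dashed line at their median of 0.11, and the 4 strands and miR-152-3p as points with standard errors whose height has no meaning. miR-148a-3p lies at 1.90, to the right of the other 3 strands, and miR-148b-5p at 0.59, which became -0.11 with library size alone.

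The order of the 4 strands was the same in all 6 libraries, with miR-148a-3p highest, then miR-148b-3p, miR-148a-5p and miR-148b-5p. Among all microRNAs, miR-148a-3p was 18th by mean level in the controls, between miR-125a-5p at 10424 ± 572 CPM and miR-192-5p at 9668 ± 937 CPM. It did not differ from either neighbour beyond their spread. In the RUNX1 samples it was 8th, just below miR-142-5p at 37694 ± 6229 CPM, a microRNA of blood cells from which it did not differ beyond the spread, and above miR-30e-5p at 26250 ± 5991 CPM, whose highest library stayed below the lowest of miR-148a-3p. miR-148b-3p went from place 36, between miR-425-5p (1864 ± 72.8 CPM) and miR-140-3p (1772 ± 117 CPM), to place 31, between miR-93-5p (4454 ± 327 CPM) and miR-30b-5p (3825 ± 442 CPM). Both pairs of neighbours lay within its spread.

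The 5p strands stood further down in this order. miR-148a-5p went from place 90, between miR-652-3p at 336 ± 21.0 CPM and miR-1307-3p at 317 ± 23.7 CPM, to place 80, between miR-561-5p at 571 ± 54.7 CPM and miR-361-5p at 554 ± 146 CPM. miR-148b-5p went from place 106 to place 102. Its neighbours were miR-345-5p (213 ± 11.6 CPM) and miR-30d-3p (204 ± 19.2 CPM) in the controls, and miR-107 (319 ± 81.8 CPM) and miR-1307-3p (318 ± 42.7 CPM) in the RUNX1 samples. None of these neighbours could be told from the strand beside it by its spread.

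Within a hairpin, the balance of the arms shifted to the 3p strand. A ratio of counts within a library needs no scaling factor, so it does not depend on depth or on miR-10a-5p. There were 31.7, 30.9 and 32.2 counts of miR-148a-3p for each count of miR-148a-5p in the controls and 85.2, 71.3 and 49.1 in the RUNX1 samples. The controls were nearly alike and all RUNX1 samples were higher, but those were spread out, with RUNX1 replicate 3 closest to the controls. The mean log2 ratio went from 4.98 ± 0.0297 to 6.06 ± 0.406 (SD, n = 3), a change of 1.08 or 2.11-fold. The two-sided exact permutation p was 0.1, which is the smallest that 3 samples against 3 can give.

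The arm ratio of miR-148b was lower and moved less. It was 8.58, 7.72 and 9.38 in the controls and 14.98, 12.7 and 10.4 in the RUNX1 samples. The groups did not overlap, though RUNX1 replicate 3 was near the highest control. The mean log2 ratio went from 3.09 ± 0.141 to 3.65 ± 0.263, a change of 0.56 or 1.47-fold (exact permutation p = 0.1). Without RUNX1 replicate 3 the changes were 1.30 for miR-148a and 0.69 for miR-148b.

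**Figure D3:**
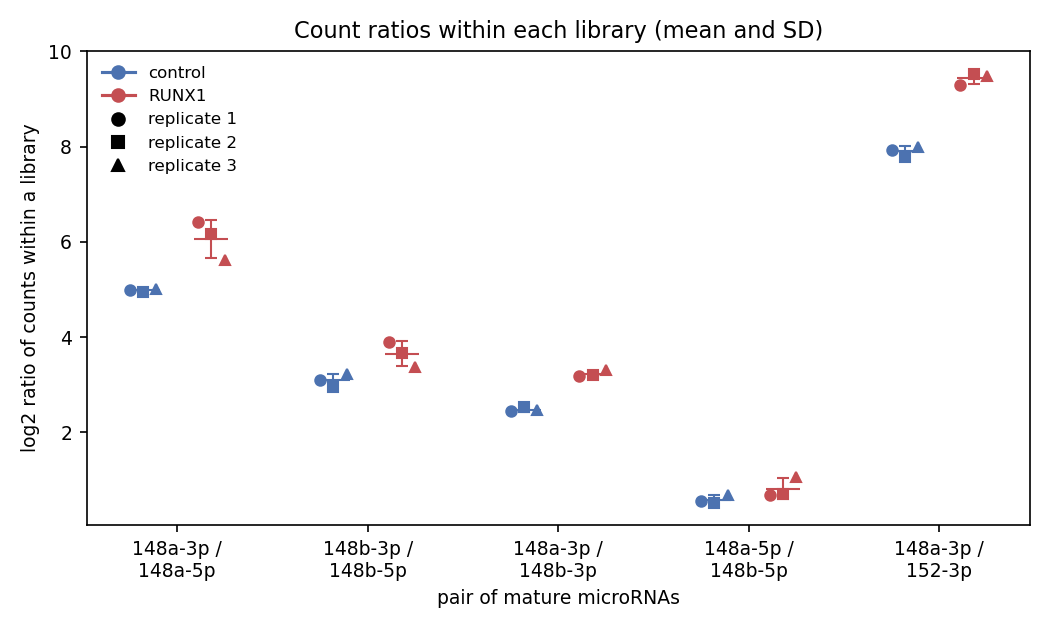
Log2 ratio of counts within each library for 5 pairs of mature microRNAs, with a point per library (blue control, red RUNX1, a shape per replicate) and lines for the group mean and SD. RUNX1 replicate 3 is the lowest RUNX1 point in both ratios of the 3p to the 5p strand, and the groups overlap for miR-148a-5p over miR-148b-5p.

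The same ratio was taken for hairpins whose arms share one name apart from 3p or 5p. Both arms had to be tested and to have at least 1 count in each library. Hairpins with arms named otherwise, such as miR-92a-1-5p and miR-92a-3p, were left out. Of these 144 hairpins, 37 had a higher 3p to 5p ratio in all RUNX1 samples than in all controls (25.7%), 42 had a lower one, and 65 overlapped. The median change was 0.01 on the log2 scale, with quartiles of -0.70 and 0.53. miR-148a stood at place 23 of the 144 and miR-148b at place 34, both above the upper quartile. Of the 62 hairpins whose 3p strand was the major one in the controls, as in both miR-148 hairpins, 19 had the higher ratio, and their median change was 0.14. Shifts of the arm ratio in either direction were thus common among these hairpins.

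**Figure D4:**
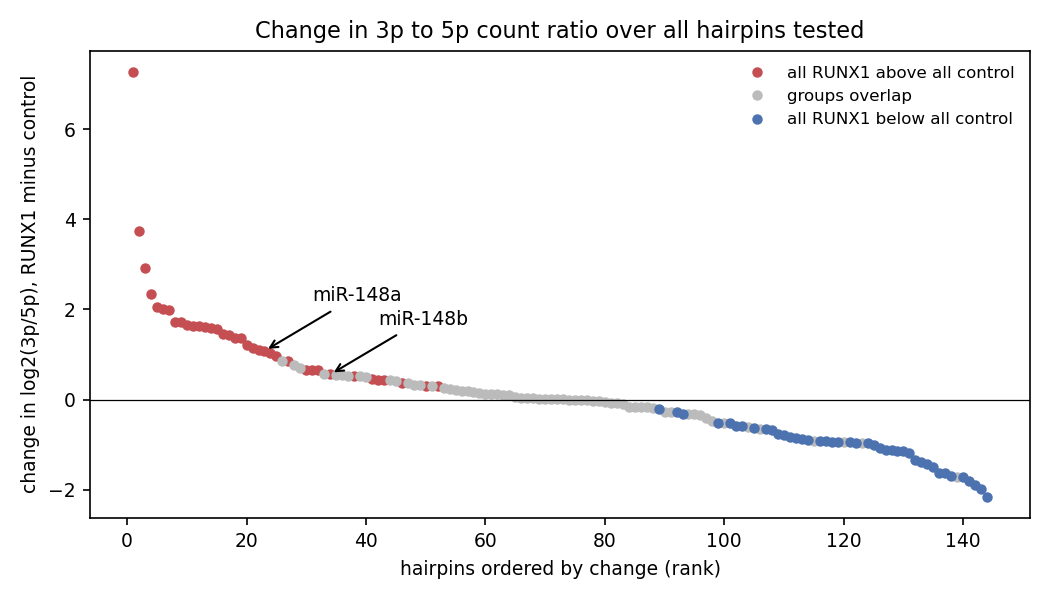
Change of the log2 ratio of the 3p to the 5p strand, RUNX1 minus control, for 144 hairpins ranked from the largest to the smallest, in red or blue where all RUNX1 samples lay above or below all controls and in grey where they overlapped. miR-148a lies at 1.08 (place 23) and miR-148b at 0.56 (place 34), beside a median of 0.01.

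Between the paralogs, miR-148a-3p gained on miR-148b-3p. The ratio of their counts was 5.43, 5.76 and 5.53 in the controls and 9.11, 9.23 and 9.89 in the RUNX1 samples. Both groups were tight and well apart, and RUNX1 replicate 3 had the highest ratio. The mean log2 ratio went from 2.48 ± 0.0431 to 3.23 ± 0.0639, a change of 0.75 or 1.69-fold (exact permutation p = 0.1, the smallest possible). For the 5p strands the ratio of miR-148a to miR-148b was 1.47, 1.44 and 1.61 in the controls and 1.60, 1.64 and 2.10 in the RUNX1 samples. These overlapped, and the change of 0.23 on the log2 scale had an exact permutation p of 0.2 and fell to 0.11 without RUNX1 replicate 3. Reads that fit both paralogs could be assigned to either, and how such reads were counted is not given in the sources used here.

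miR-152, the third hairpin of the family, was rare in these cells. miR-152-3p had 86, 337 and 329 counts in the controls and 749, 330 and 321 in the RUNX1 samples, or 41.1, 41.8 and 43.3 CPM against 65.0, 52.8 and 46.9 CPM. All RUNX1 samples lay above the controls by a small margin. The log2 fold change of 0.38 (SE 0.156, adjusted p = 0.0593, edgeR) did not reach the size for a call, and without RUNX1 replicate 3 it was 0.58 and did. miR-152-5p had 4 to 25 counts in each library, and its log2 fold change was -0.06 (SE 0.310, adjusted p = 0.876). Against miR-152-3p, the counts of miR-148a-3p were 244, 220 and 254 times as many in the controls and 625, 741 and 710 times in the RUNX1 samples, a change of 1.53 on the log2 scale or 2.89-fold. For miR-148b-3p the ratios were 44.9, 38.2 and 46.0 against 68.6, 80.3 and 71.7, a change of 0.77 or 1.71-fold. Each exact permutation p was 0.1.

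Counted as one seed family, the 3p strands with CAGUGCA were 1.86% ± 0.104 of the microRNA counts in the controls and 3.59% ± 0.117 in the RUNX1 samples. The make-up of the family changed as well. miR-148a-3p supplied 84.5% ± 0.363 of it in the controls and 90.3% ± 0.385 in the RUNX1 samples. The part of miR-148b-3p went from 15.2% ± 0.386 to 9.60% ± 0.380, and that of miR-152-3p from 0.354% ± 0.0279 to 0.131% ± 0.0115. The 3 parts sum to the whole, so a gain of one is a loss of the others.

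As shares of all microRNA counts, the 3p strands gained and the 5p strands did not. miR-148a-3p held 1.58, 1.48 and 1.65% of them in the controls and 3.34, 3.15 and 3.22% in the RUNX1 samples. miR-148b-3p held 0.282% ± 0.0216 and 0.344% ± 0.0212, again with no overlap. miR-148a-5p held 0.0497% ± 0.00161 and 0.0496% ± 0.0139, with overlapping groups (exact permutation p = 1). miR-148b-5p was lower in every RUNX1 sample by share, at 0.0339, 0.0334 and 0.0317% against 0.0245, 0.0269 and 0.0312%, although its TMM-scaled level was higher in each. With miR-10a-5p left out of the denominator, the share of miR-148b-5p was 0.0357% in the controls and 0.0394% in the RUNX1 samples, with overlap, and that of miR-148a-5p was 0.0538% and 0.0708%, without overlap. The direction for miR-148b-5p thus depends on what the count is set against, and that for the 3p strands was the same in each of these.

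The fitted changes showed the same dependence. With library size as the only scaling, which lowered the median log2 fold change of all tested microRNAs from 0.11 to -0.59, miR-148a-3p stayed called at 1.19. Under that scaling miR-148b-3p was at 0.44 and miR-148a-5p at 0.15, both below the call size, and miR-148b-5p was at -0.11. Set against the median microRNA of the same fit, all 4 strands were higher in either case. Between strands, the differences of these values hardly move with the scaling, as the ratios within a library do not use it.

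**Figure D5:**
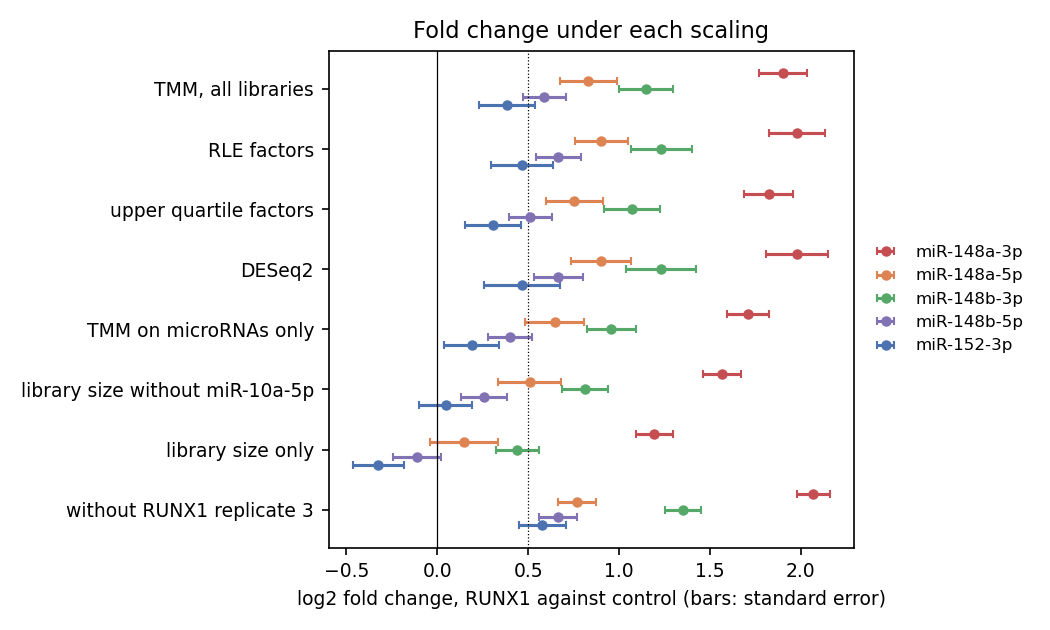
Log2 fold change with its standard error for the 4 strands and miR-152-3p under 7 ways of scaling or testing and without RUNX1 replicate 3, with a dotted line at the call size of 0.5. miR-148a-3p is above 1 in each, while miR-148b-5p, at 0.59 with TMM, runs from 0.67 with DESeq2 down to -0.11 with library size alone.

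MicroRNAs linked to the DNA methyltransferases were taken as a list of 9, which holds the 3p strands of the family, the miR-29 family that targets DNMT3A and DNMT3B, and miR-126-3p, miR-185-5p and miR-342-3p, which are known to target DNMT1. Of the 8 tested, 6 rose, 1 fell and 1 was not called, where 33.4% of all tested microRNAs rose, and the median log2 fold change was 1.29, beside 0.11 over all microRNAs. The 6 include miR-148a-3p and miR-148b-3p themselves, and of the 6 tested others on the list 4 rose. The list was chosen with earlier results of these data known, so these shares are a description and were not tested. With library size as the only scaling 4 of the 8 were called upwards, where 91 of the 598 tested microRNAs were. Without RUNX1 replicate 3 it was 8 of the 9 then tested, where 225 of 612 microRNAs were. The entry added there, miR-29b-3p, is one of these 8 calls. It passed the count filter only through its RUNX1 counts, so its call carries no weight. miR-152-3p, at 0.58 in that fit, is also among the 8. miR-29a-3p rose from 394 to 1985 CPM, with a log2 fold change of 2.33 (SE 0.147, adjusted p = 2.66e-06, edgeR), and miR-29c-3p from 121 to 977 CPM, with 3.01 (SE 0.234, adjusted p = 8.58e-06). miR-342-3p rose by 1.44 (SE 0.185) and miR-185-5p by 0.68 (SE 0.120) on the log2 scale, the latter at -0.028 with library size alone. miR-126-3p, an endothelial and megakaryocytic microRNA, was at 7488, 8568 and 8064 CPM in the controls and at 1804, 2080 and 5809 CPM in the RUNX1 samples. All RUNX1 samples were lower, with RUNX1 replicate 3 far above the other 2. The mean fell from 8040 ± 540 to 3231 ± 2237 CPM, a log2 fold change of -1.32 (SE 0.389, adjusted p = 0.0164), which was -1.97 without RUNX1 replicate 3. miR-152-3p was the one not called in the fit of all libraries. With all libraries fitted, miR-29b-3p did not pass the count filter, with 0, 0 and 2 counts in the controls and 27, 14 and 10 in the RUNX1 samples. As the handling of reads that match several places is not given, these counts need not mean a low level. By mean level miR-148a-3p was the most abundant of the list in both groups.

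The 20 most abundant microRNAs give another frame for miR-148a-3p. By mean level over the 6 samples it was the 10th of them. The 20 include a predicted entry whose counts are nearly those of miR-27b-3p. Of the 20, 10 rose, where 33.4% of all tested microRNAs did, 1 fell and 9 were not called, with a median log2 fold change of 0.54. With library size as the only scaling 3 of them were called upwards and 7 downwards, with a median of -0.16. Of all 598 tested microRNAs, 91 were called upwards and 292 downwards under that scaling, with a median of -0.59. On TMM scaling, only miR-10a-5p, at 2.83, had a larger log2 fold change than miR-148a-3p.

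The microRNAs most like each strand were found by the root mean square difference of their log2 levels, each centred on its own mean over the 6 samples, among 307 tested microRNAs with a mean of at least 10 CPM. For miR-148a-3p they were miR-181c-3p (difference 0.097, log2 fold change 2.05), miR-301a-3p (0.104 and 1.79) and miR-181b-5p (0.142 and 1.85), where the median difference was 0.873. For miR-148b-3p they were miR-23b-3p at 0.0591, miR-30e-3p at 0.0745 and miR-409-3p at 0.0798, with log2 fold changes of 1.11, 1.16 and 1.07. miR-148a-5p was nearest to miR-769-5p at 0.140, miR-19a-3p at 0.152 and miR-374b-3p at 0.153. miR-148b-5p was nearest to miR-671-5p at 0.0621, miR-185-5p at 0.0673 and miR-22-3p at 0.0786. miR-181b-5p and miR-409-3p averaged 5.18 and 7.43 CPM in the controls, so they reached the minimum of 10 CPM only through the RUNX1 samples. All of these points share the same 6 libraries and depths, so the likeness is a description.

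By the same measure, the strands of one hairpin were not each other's nearest. miR-148a-3p and miR-148a-5p differed by 0.589 and miR-148b-3p and miR-148b-5p by 0.328. The 5p strands of the 2 hairpins differed by 0.177 and their 3p strands by 0.380. Seen from miR-148a-5p, miR-148b-5p was in place 7 of 310, while miR-148a-3p was in place 188.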

How the data were processed

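Small RNA of 3 control and 3 RUNX1 K562 samples was sequenced from TruSeq Small RNA libraries made with 1000 ng of total RNA. The deposited values are whole-number read counts per annotated small RNA, made by the authors without normalization; the submitters' processing notes name CASAVA 1.8.2 and hg19. The aligner and the handling of reads that match several entries are not given in the sources used here. The count tables give no positions for these microRNAs, so coordinates are from RefSeq and GENCODE 29 on GRCh38. 5 summary lines, which held 0 counts, were left out.

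Groups and replicate numbers were taken from the sample titles. Counts were analysed in R 4.3.3 with edgeR 4.0.16 (filterByExpr with minimum count 10 and minimum total 15, TMM, glmQLFit and glmQLFTest, condition as the only term), fitted over all 947 small RNAs that passed, with Benjamini-Hochberg adjustment over them. Calls used the study's thresholds, a P-value below 0.05 with a log2 fold change of 0.5 or more either way. Standard errors were obtained from the F statistic, as the fold change on the log2 scale over its square root. Ratios and shares were compared by two-sided exact permutation tests over samples. The fits were tested on simulated data, in which entries chosen at random were changed in either direction. That simulation was not built with a shift like that of miR-10a-5p or with a replicate set apart, so it does not test the scaling under these. Total counts were 1618248 to 15245007, and 3 counts, taken as the floor, are 0.000185% of the smallest library. Reads carry no molecular identifiers, so depth covers counting error only, and P-values measure the spread between these transductions.

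The members and lists were chosen with earlier results of these data known. The named microRNAs were the 4 strands, both arms of miR-152, the microRNAs linked to DNA methyltransferases, the 3 most alike and the neighbours in level of each strand, miR-10a-5p, and cell type markers. Alternatives were DESeq2 1.42.0, other scalings, other filters and thresholds, a replicate block, miR-10a-5p left out, and each replicate left out.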

Additional observations from a re-analysis of the deposited data

How the results depend on the processing

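The log2 fold change of hsa-miR-148a-3p was called upwards in 16 of 16 alternatives, from 1.19 to 2.07. hsa-miR-148a-5p and hsa-miR-148b-3p were called in 15 of 16 and hsa-miR-148b-5p in 13 of 16. With library size only, hsa-miR-148a-5p was at 0.15, hsa-miR-148b-3p at 0.44, hsa-miR-148b-5p at -0.11 and hsa-miR-152-3p at -0.32, and 1 of the 4 strands and 91 microRNAs were called upwards. hsa-miR-148b-5p was at 0.40 with TMM on microRNAs only and at 0.26 with library size without miR-10a-5p. These scalings also moved the split of calls, from 200 up and 135 down (59.7% up) to 91 and 292 (23.8%) with library size only, 161 and 175 (47.9%) with TMM on microRNAs and 140 and 202 (40.9%) without miR-10a-5p. A log2 fold change of at least 1 left 2 strands and 129 microRNAs, and at least 10 counts in every sample left 133 microRNAs, since fewer could pass. Leaving out miR-10a-5p widened the differences in share to 2.94 percentage points for miR-148a-3p and 0.189 for miR-148b-3p. Leaving out each replicate gave hsa-miR-152-3p between 0.27 and 0.58, with the highest, and a call, without RUNX1 replicate 3. Settings added after seeing the data put miR-185-5p at -0.028 with library size only. No pairing by replicate number was seen, with correlations of same-numbered deviations from -0.08 to 0.02. As each deviation is from a mean of 3 samples, this does not show that the samples were unpaired. With the replicate block the strands were at 1.90, 0.82, 1.15 and 0.59 (miR-148a-3p, miR-148a-5p, miR-148b-3p, miR-148b-5p) with 195 microRNAs called upwards. Ratios within a library kept their direction in every leave-one-out. Depth was not the limit for the 4 strands, since counting error was at most 4.71% of a count, but miR-152-5p had too few counts to resolve a change. The causes of these differences between settings were not tested.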
